A study of Mus musculus with 48 samples.

Results

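Gata4, Gata6, Sox17, Sox7, Foxa2 and Hhex encode transcription factors that direct endoderm, and they were followed here while mouse embryonic stem (ES) cells differentiated towards epiblast stem cells. They are 6 of the 22745 genes in the table and were chosen by their Ensembl identifiers, ENSMUSG00000021944, ENSMUSG00000005836, ENSMUSG00000025902, ENSMUSG00000063060, ENSMUSG00000037025 and ENSMUSG00000024986 in that order. The rule uses no measured value. Gene expression was read on Affymetrix Mouse Exon 1.0 ST arrays, which carry probes along the exons of each gene. The cells were XX and XO ES cells labelled Pgk12.1 and XY ES cells labelled E14. How the XO cells arose, and whether any line is 1 clone, is not given in the labels used here. XY comes from another line, so its sex chromosomes and its line background cannot be told apart. All 3 kinds of cell were first kept in N2B27 medium with the Gsk3 inhibitor CT-99021, the Mek1 inhibitor PD-0325901 and LIF, which hold stem cells in the naive state. They were then moved to fibronectin with Activin A and Fgf-basic for up to 84 h. There were 18 XX arrays, 19 XO arrays and 10 XY arrays, at 16, 17 and 9 times. Only XX, XO and XY at 0 h and XX and XO at 36 h had 2 arrays, A and B, and 1 further array held a commercial mouse reference RNA. That array was grouped by its source name, since its description names a cell sample, and it enters no comparison.

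Endoderm forms more than once in the mouse embryo. Primitive endoderm separates from the epiblast in the blastocyst, where Gata6 opposes the epiblast programme and Sox17, Gata4 and Sox7 follow it. Definitive endoderm forms later, at gastrulation, under Nodal signalling, which Activin A imitates in culture, and it uses Foxa2, Sox17, Gata4, Gata6 and Hhex. Hhex also marks the anterior visceral endoderm, and a low level of Hhex has been used to follow cells leaning towards primitive endoderm in stem cell cultures.

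Between the lowest and the highest of the 47 cell arrays, the log2 value of Sox17 spanned 1.06, that of Gata4 1.16, Hhex 1.35, Foxa2 2.06, Gata6 2.22 and Sox7 3.44. Differences between groups that passed a test were 0.66 to 1.41 log2 units in size. What passed included a fall of Gata6 and a rise of Foxa2 in XX cells, a short rise of Sox7 in XX cells, a fall of Hhex in XY cells, and lower late levels of Sox7 and Foxa2 in XY cells than in either other line. In the pooled RNA of a culture, fewer cells of a type and less RNA per cell cannot be told apart.

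Values are log2 expression values, so a difference of 1 is a doubling of signal, and values of different genes rest on different probes and are not compared. Array medians lay between 6.80 and 7.10. In the 5 conditions with 2 arrays, A minus B over all genes had a standard deviation of 0.32 to 0.39, and of 0.40 to 0.44 over the dimmest 25% of genes. Sox7 and Hhex belong to those dim genes, and lay below the first quartile of their array on 31 and 32 of 47 cell arrays. For Sox7 at 0 h, A minus B came to 0.75 for XX, 0.62 for XO and -0.92 for XY, so single values of Sox7 carry a large error. The array files do not pair other identifiers with symbols, so pluripotency, epiblast and further endoderm markers were not checked.

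**Figure D1:**
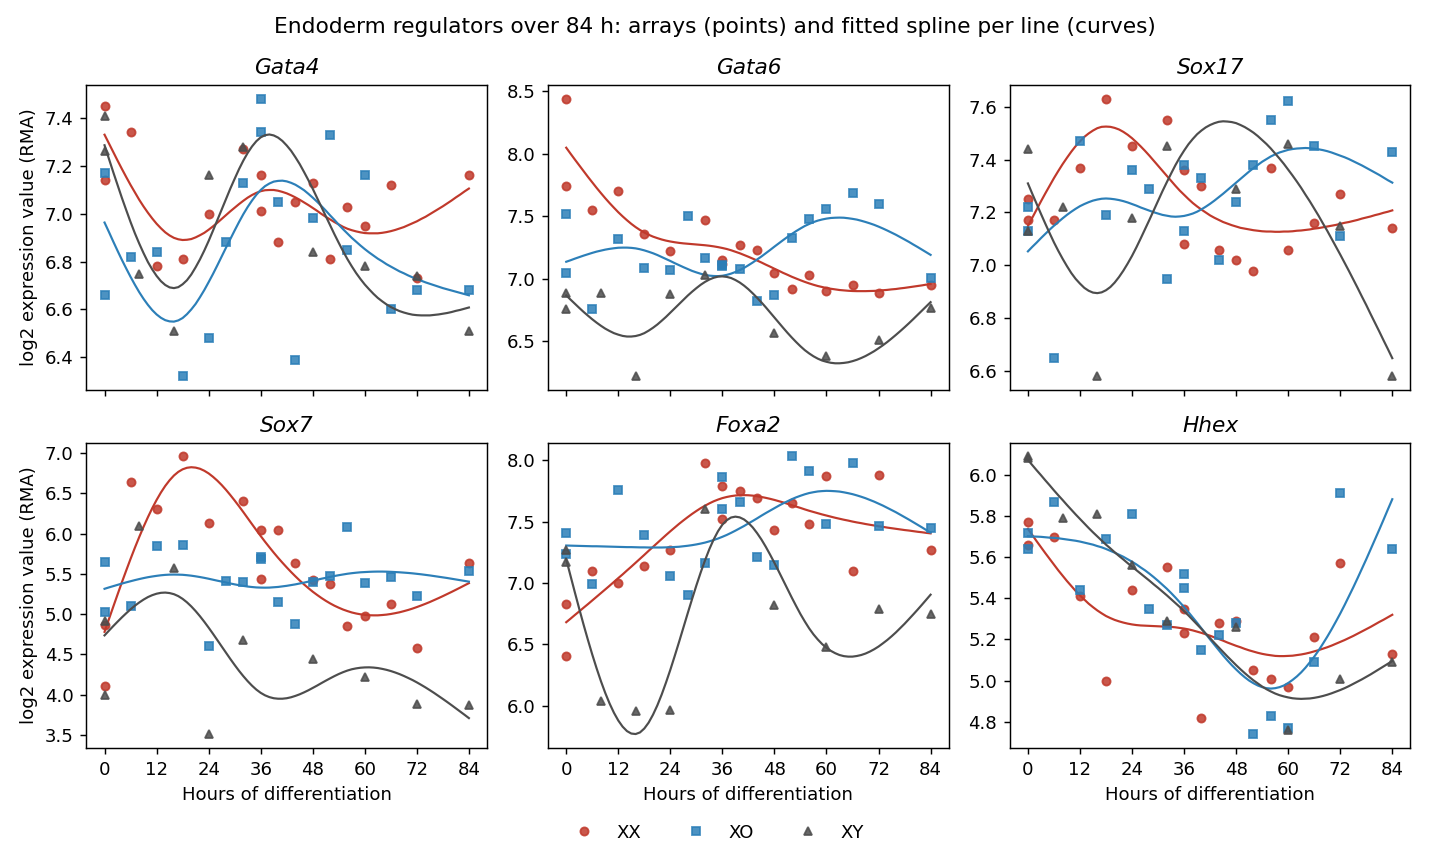
Log2 expression value (vertical axes, 1 scale per gene) of the 6 genes against hours of differentiation, with 1 point per array and a fitted natural cubic spline per line for XX (red circles), XO (blue squares) and XY (grey triangles). Gata6 in XX starts at 7.74 and 8.44 and ends at 6.95, Sox7 in XX is highest at 18 h (6.96), and Foxa2 in XY is lowest at 8, 16 and 24 h (6.04, 5.96 and 5.97).

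Differences were tested with limma, and a gene passed when its p, adjusted by Benjamini-Hochberg over all 22745 genes, was under 0.05. At 0 h, 0 of 6 members passed for XX against XO, 1 of 6 for XX against XY and 0 of 6 for XO against XY. Over all genes 9.15%, 12.4% and 9.7% passed these 3 tests. Unadjusted p was under 0.05 for 3, 3 and 2 of the 6 members. At 36 h, 0 of 6 passed for XX against XO, where 8.97% of genes did, and 0 of 6 had an unadjusted p under 0.05. For 36 h against 0 h, 2 of 6 passed in XX and 0 of 6 in XO, beside 13.4% and 18.9% of all genes, and the unadjusted p was under 0.05 for 4 and 1 members. None of the 6 passed for the difference between those changes, where 1.65% of genes passed and 3 members had an unadjusted p under 0.05.

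The late window held the arrays at 60, 66, 72 and 84 h, 4 each in XX and XO and 3 in XY, with the times standing in as replicates. Against 0 h, 2 of 6 members passed in XX, 0 in XO and 2 in XY, beside 13.6%, 20.7% and 21.6% of all genes. Between lines in that window, 0 of 6 passed for XX against XO, 2 for XX against XY and 3 for XO against XY, beside 12.2%, 23.4% and 19.9%. For XO late against 0 h, 0 of 6 also had an unadjusted p under 0.05, and for XX against XO late 1 of 6 did. Over the whole course, an F test on a spline per line passed 3 of 6 members in XX, 1 in XO and 3 in XY, where 34.1%, 53.9% and 50.2% of genes passed. The XX and XO courses differed for 2 of 6 members and for 27.1% of genes. The average XX minus XO level over the 16 times that both lines share passed for 0 of 6, beside 37.6% of genes, and 0 of 6 had an unadjusted p under 0.05. The share of members called was above that of all genes in 8 of the 18 comparisons and below it in 10, and 1 member is 16.7% of the 6.

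Gata6, the zinc finger factor at the head of the primitive endoderm programme, had its highest cell values in XX cells at 0 h, at 7.74 and 8.44. XO cells at 0 h had 7.05 and 7.52, and XY cells 6.89 and 6.76. No XX array overlapped an XO or XY array there. XX exceeded XY by 1.27 (SE 0.24, limma adjusted p = 0.0100), or 1.18 relative to the median of all genes. The XX minus XO difference of 0.81 (SE 0.24, limma adjusted p = 0.0688) did not pass. It was 1.16 without XX A (limma adjusted p = 0.0244, which passes) and 0.46 without XX B (0.263), and over 9 alternatives the adjusted p ran from 0.0244 to 0.315. In XX itself A minus B was -0.70, and without XY B the XX against XY difference was 1.2 (limma adjusted p = 0.0599, range over 9 alternatives 0.00596 to 0.0599).

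In XX cells Gata6 then fell. It stood at 7.55 at 6 h, 7.70 at 12 h, 7.36 at 18 h and 7.22 at 24 h. It was between 7.05 and 7.47 from 32 to 48 h, and between 6.89 and 7.03 from 52 to 84 h, with an SD of 0.05 over those 6 arrays. At 36 h its mean was 7.13 ± 0.02, against 8.09 ± 0.50 at 0 h (SD, n = 2 each), a fall by 0.96 (SE 0.24, limma adjusted p = 0.0284). In the late window it was 6.92 ± 0.03 (SD, n = 4), a fall by 1.17 from 0 h (SE 0.22, limma adjusted p = 0.00154), and all late arrays lay below both 0 h arrays. Array XX B at 0 h carries much of this size, since without it the late difference was -0.82 (limma adjusted p = 0.0669, range over 11 alternatives 0.00118 to 0.0669) and the 36 h difference -0.61 (limma adjusted p = 0.149, range over 9 alternatives 0.00738 to 0.149). The 36 h call also missed the threshold without XX 36 h A (-0.97) or B (-0.95), with adjusted p of 0.104 and 0.127. The course test over all 18 XX arrays (limma F test, adjusted p = 4.54e-05) passed in each of its 11 alternatives, with adjusted p of at most 0.00412. The XX arrays left out 1 at a time there were only those at 0, 36 and 84 h.

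No course of Gata6 passed in XO or XY cells. XO values were 6.76 to 7.52 from 0 to 48 h and 7.33, 7.48, 7.56, 7.69 and 7.60 at 52, 56, 60, 66 and 72 h, before 7.01 at 84 h. The arrays at 52, 56, 60 and 66 h were among the 6 with the narrowest value distributions, described with Foxa2. Those at 72 and 84 h, with 7.60 and 7.01, were the widest XO arrays (interquartile ranges 3.21 and 3.28). Over the 19 XO arrays Gata6 had a Pearson r of -0.32 with array width, where the median size over all genes was 0.36. The XO course gave a limma F test adjusted p of 0.149 (range over 11 alternatives 0.0426 to 0.974, of which 1 passed). Its fitted 84 h minus 0 h change of 0.06 turned sign in 3 of them (-0.22 to 0.96). XY values lay between 6.22 at 16 h and 7.03 at 32 h (limma F test, adjusted p = 0.198, range over 9 alternatives 0.114 to 0.752). Over the 10 XY arrays Gata6 had a Pearson r of -0.51 with array width, where the median size over all genes was 0.34. The part of array width in these XO and XY values was not tested. XX was above XO at all 10 shared times from 0 to 48 h and below it at all 6 from 52 to 84 h. This split was placed where the sign turned in these data, and XX minus XO was only 0.03 at 36 h and -0.06 at 84 h. The XX and XO courses differed (limma interaction F test, adjusted p = 6.29e-04), and the fitted 84 h minus 0 h change in XX minus that in XO was -1.14 (SE 0.35), or -1.01 relative to all genes. That value was -2.06 without XO 84 h and -0.85 without XX 0 h B, the extremes over 16 alternatives. This call passed in each of 16 alternatives, with adjusted p from 1.16e-04 to 0.0485, the highest being without the 6 arrays whose values were most narrowly distributed. In the late window XX (6.89 to 6.95) lay below XO (7.01 to 7.69) on every array, by -0.54 in XX minus XO (SE 0.18, limma adjusted p = 0.0624, range over 13 alternatives 0.0138 to 0.298). XO exceeded XY there by 0.91 (7.47 ± 0.31, n = 4, against 6.55 ± 0.20, n = 3; SD; SE 0.19, limma adjusted p = 0.00518), or 0.83 relative to all genes, and the arrays of the lines did not overlap. Without the 6 narrowest arrays the adjusted p was 0.0476, the highest of 12 alternatives (lowest 0.00164).

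**Figure D2:**
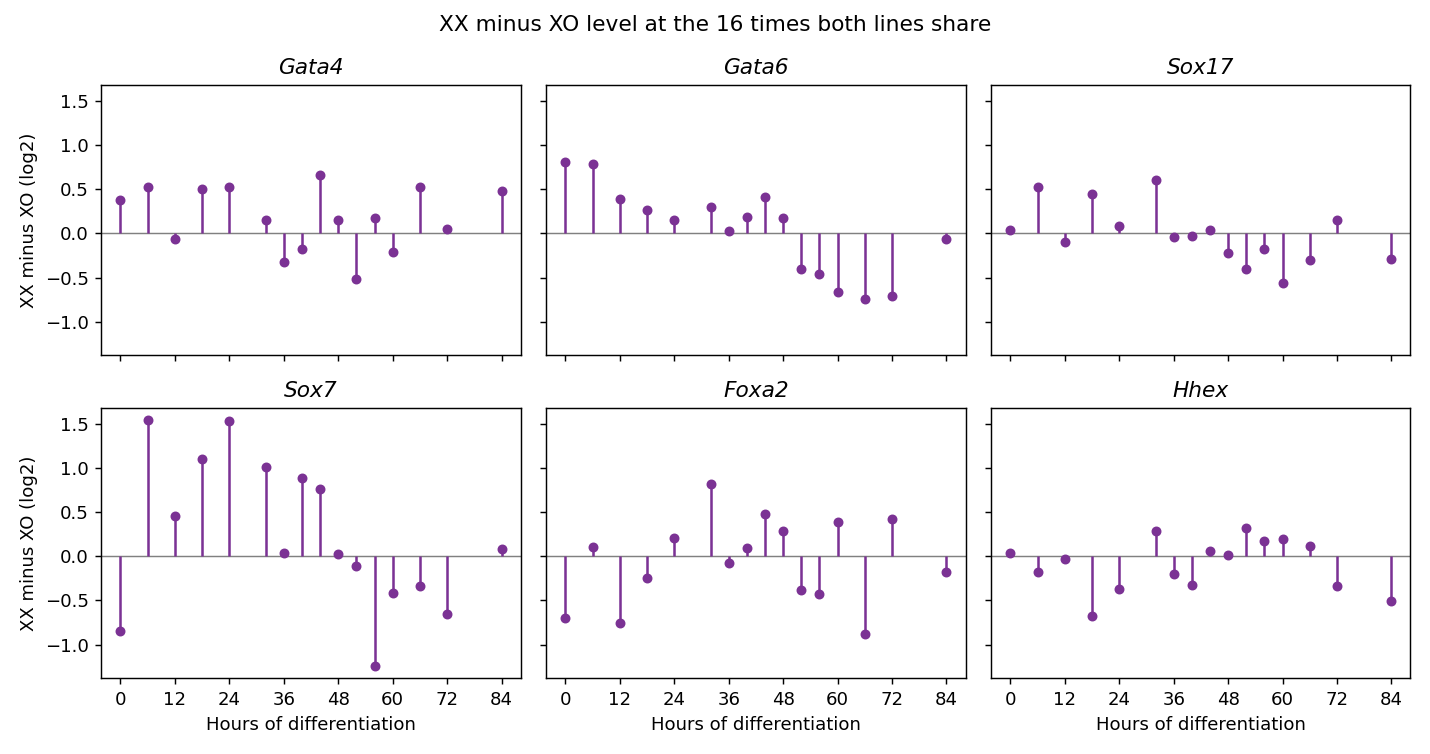
Difference in log2 value between XX and XO cells (vertical axis, positive where XX is higher) at each of the 16 shared times in hours, using the mean of A and B at 0 and 36 h and 1 array per line elsewhere. Gata6 differences run from 0.81 at 0 h to -0.74 at 66 h, and those of Sox7 from 1.54 at 6 h to -1.24 at 56 h.

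Gata4, the related zinc finger factor, spanned a narrow range. Its 47 cell values lay between 6.32 and 7.48, and its standard deviation of 0.29 was above that of 32.5% of genes. XX arrays ranged from 6.73 to 7.45, XO from 6.32 to 7.48 and XY from 6.51 to 7.41, so the lines overlapped. In XY the late arrays had 6.78, 6.74 and 6.51, below the 0 h arrays at 7.41 and 7.26. This fall by 0.66 (SE 0.21, limma adjusted p = 0.0333) no longer passed without XY 0 h A (-0.58), XY 0 h B (-0.73) or XY 84 h (-0.58), with limma adjusted p of 0.194, 0.0976 and 0.0915 (range over 10 alternatives 0.0190 to 0.194). No course test of Gata4 passed, with limma adjusted p of 0.504 in XX, 0.0880 in XO and 0.0607 in XY. The XO course did pass in 2 of 11 alternatives (range 0.0261 to 0.351) and the XY course in 1 of 9 (0.0359 to 0.285).

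Sox17, an HMG box factor of primitive and definitive endoderm, was the steadiest member. Its cell values lay between 6.58 and 7.63, and only 16.8% of genes had a smaller standard deviation than its 0.24. In XX the highest values were 7.63 at 18 h and 7.55 at 32 h, in XO 7.62 at 60 h and 7.55 at 56 h. Neither the XX nor the XO course passed (limma F test, adjusted p = 0.273 and 0.285). The XY course passed (limma F test, adjusted p = 0.0237), with 7.44 and 7.13 at 0 h, 6.58 at 16 h, 7.46 at 60 h and 6.58 at 84 h. That call rests on the 84 h array, without which the adjusted p was 0.211 (range over 9 alternatives 0.0181 to 0.211). The 16 h array, the widest of all cell arrays (interquartile range 3.44), was left out in no alternative. Over the 10 XY arrays Sox17 had a Pearson r of -0.58 with array width, where the median size over all genes was 0.34. The part of array width was not tested.

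Sox7, of the same SoxF family as Sox17 and also active in parietal endoderm and early vessels, rose for a time in XX cells. It had 4.86 and 4.11 at 0 h, then 6.64 at 6 h, 6.31 at 12 h, 6.96 at 18 h and 6.13 at 24 h. It was 6.40 at 32 h, 5.44 and 6.05 at 36 h, 6.04 at 40 h and 5.42 at 48 h. From 52 to 84 h it lay between 4.58 and 5.63. Every XX array from 6 to 48 h was above both 0 h arrays, and the fitted curve peaked at 6.83 at 20 h. The XX course passed (limma F test, adjusted p = 0.00115) and did so in 10 of 10 alternatives, with adjusted p of at most 0.00449. None of these left out an XX array from 6 to 32 h, so the weight of each of those single arrays was not tested.

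The XO course of Sox7 did not pass (limma F test, adjusted p = 0.986). Its values were 5.65 and 5.03 at 0 h, and 5.10, 5.85, 5.86 and 4.60 at 6, 12, 18 and 24 h, and from 6 to 24 h each lay below the XX value of its time. XX exceeded XO by 1.54 at 6 h, 0.46 at 12 h, 1.10 at 18 h and 1.53 at 24 h, where each line had 1 array, and XX minus XO was -0.85 at 0 h (SE 0.37, limma adjusted p = 0.207; -1.23 to -0.48 over 8 alternatives). Sox7 was also lower on wider arrays in XX (Pearson r = -0.56 over 18 arrays), whose interquartile ranges were 3.18 and 3.17 at 0 h and 2.99 to 3.10 from 6 to 24 h, and the part of array width was not tested. XY cells had 4.00 and 4.92 at 0 h, 6.10 at 8 h, 5.57 at 16 h and 3.51 at 24 h. Their course, with 10 arrays behind it, did not pass (limma F test, adjusted p = 0.132). The difference between the XX and XO courses passed (limma interaction F test, adjusted p = 0.0386). It is near the threshold, and the adjusted p was above 0.05 in 6 of its 15 alternatives (range 0.0288 to 0.110). These were quantile normalization (0.0597), leaving out the 6 narrowest arrays (0.110), and leaving out XX 0 h A (0.0518), XX 0 h B (0.0619), XX 36 h B (0.0502) or XO 0 h A (0.0641).

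Late Sox7 separated XY from the other lines. The late arrays had 4.98, 5.12, 4.58 and 5.63 in XX and 5.39, 5.46, 5.22 and 5.54 in XO, against 4.22, 3.88 and 3.87 in XY. No XY array reached the lowest XX or XO array. XX exceeded XY by 1.09 (SE 0.27, limma adjusted p = 0.00891), or 1.0 relative to all genes. XO exceeded XY by 1.41 (SE 0.27, limma adjusted p = 0.00260), or 1.33 relative to all genes. XX and XO are set against the same 3 XY arrays, so these are not independent results. At 0 h Sox7 averaged 4.48 ± 0.53 in XX cells, 5.34 ± 0.44 in XO cells and 4.46 ± 0.65 in XY cells (SD, n = 2 each), and no pair of lines passed.

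**Figure D3:**
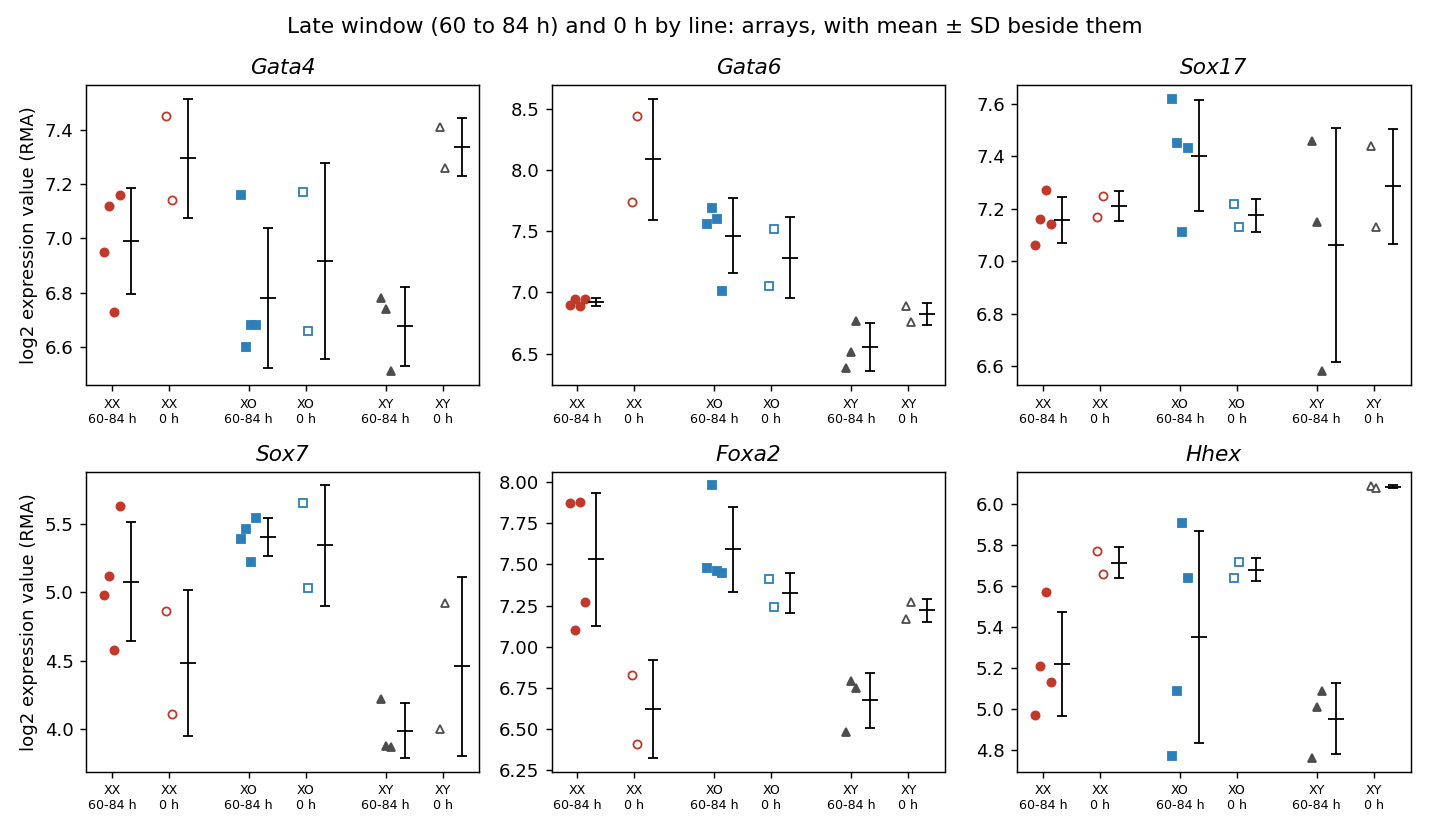
Log2 expression value of each gene in the late window (filled symbols, arrays at 60 to 84 h, n = 4 in XX and XO and 3 in XY) and at 0 h (open symbols, n = 2), by line, with the mean and SD beside each group. In Gata6 the late XX arrays (6.89 to 6.95) lie below the 0 h arrays (7.74 and 8.44), in Foxa2 they lie above them, and in Sox7 the late XY arrays (3.87 to 4.22) lie below the late XX and XO arrays.

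Foxa2, a forkhead factor that opens chromatin for other endoderm factors, rose in XX cells. It started at 6.83 and 6.41 at 0 h, below both XO arrays (7.41 and 7.24) and both XY arrays (7.17 and 7.27). XX minus XO was -0.70 (SE 0.19) with a limma adjusted p of 0.0506, just above the threshold. XX minus XY was -0.60 (SE 0.19) with a limma adjusted p of 0.0695. Centring arrays on their medians gave -0.81 and -0.76, with limma adjusted p of 0.0367 and 0.0335, and over 9 alternatives each the adjusted p ran from 0.0316 to 0.223 and from 0.0335 to 0.295. Without XX B the differences were -0.49 and -0.39. XX values were 7.0 to 7.27 from 6 to 24 h, 7.43 to 7.98 from 32 to 48 h and 7.10 to 7.88 from 52 to 84 h.

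At 36 h XX cells had 7.65 ± 0.19, against 6.62 ± 0.30 at 0 h (SD, n = 2 each), a rise of 1.03 (SE 0.19, limma adjusted p = 0.00685). In the late window they had 7.53 ± 0.41 (SD, n = 4), a rise of 0.91 over 0 h (SE 0.23, limma adjusted p = 0.0147). Without XX 0 h B the late rise was 0.70 (limma adjusted p = 0.227, range over 11 alternatives 0.00596 to 0.227). The 36 h rise missed the threshold without XX 36 h A (limma adjusted p = 0.0544, range over 9 alternatives 0.00426 to 0.0544). The XX course passed (limma F test, adjusted p = 0.00400), though not without XX 0 h B (adjusted p = 0.0587, range over 11 alternatives 6.09e-04 to 0.0587).

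In XO cells Foxa2 varied between 6.90 at 28 h and 8.03 at 52 h without a call (limma F test, adjusted p = 0.273). The XX and XO courses were not shown to differ (limma interaction F test, adjusted p = 0.182). By the late window XX (7.87, 7.10, 7.88 and 7.27) and XO (7.48, 7.98, 7.46 and 7.45) overlapped, with a difference of -0.06 (SE 0.19). Both lay above XY (6.48, 6.79 and 6.75), with no overlap of arrays. XX exceeded XY by 0.86 (SE 0.21), or 0.78 relative to all genes, with a limma adjusted p of 0.00779. XO exceeded the same XY arrays by 0.92 (SE 0.21), or 0.84 relative to all genes, with a limma adjusted p of 0.00698, and of 0.0453 without the 6 narrowest arrays (range over 12 alternatives 0.00545 to 0.0453).

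XY cells had the lowest Foxa2 values of the series early in the course. The values were 7.17 and 7.27 at 0 h, 6.04 at 8 h, 5.96 at 16 h, 5.97 at 24 h, 7.60 at 32 h and 6.82 at 48 h. Late minus 0 h was -0.55 (SE 0.25, limma adjusted p = 0.131). The XY course passed (limma F test, adjusted p = 0.00158), but a spline with 3 degrees of freedom gave an adjusted p of 0.395 (range over 9 alternatives 9.73e-04 to 0.395). Each time from 8 to 48 h had 1 array, and those at 8, 16 and 24 h were left out in no alternative. The width of the array's value distribution, its interquartile range over all genes, moved with these values. It was 3.23, 3.44 and 3.33 at 8, 16 and 24 h, of which the last pair were the widest of all cell arrays, and 2.86 at 32 h, the third narrowest. The 0 h arrays, where Foxa2 was not low, were 3.22 and 3.24 wide.

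Foxa2 lay lower on wider arrays in every line, with Pearson r of -0.41 over 18 XX arrays, -0.58 over 19 XO arrays and -0.71 over 10 XY arrays. So did Sox17, with -0.47, -0.45 and -0.58. The median size of r over all genes was 0.26, 0.36 and 0.34. Of the 5 highest XO values of Foxa2, those at 12, 52, 56 and 66 h (7.76, 8.03, 7.91 and 7.98) came from 4 of the 6 narrowest arrays, and 36 h B (7.86) from an array 3.08 wide. The narrowest array of all, XO at 60 h (2.77), had 7.48. Quantile normalization, which gives all arrays 1 distribution, left the Foxa2 calls of XX and XY in place. The XX against XY late call had its highest adjusted p there (limma, 0.0375). Giving arrays 1 distribution need not remove a relation of a single gene with array width, so these kept calls do not test the part of width. Without the 6 narrowest arrays (XO at 12, 52, 56, 60 and 66 h and XY at 32 h), a choice made after seeing the data, the XX and XY courses passed (limma F test, adjusted p = 6.09e-04 and 0.00112). None of the 6 is an XX array, and the wide XY arrays at 16 and 24 h stay in. These passes therefore cannot show the part of width in XX or in the low XY values. The part of array width in the single values was not tested.

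**Figure D4:**
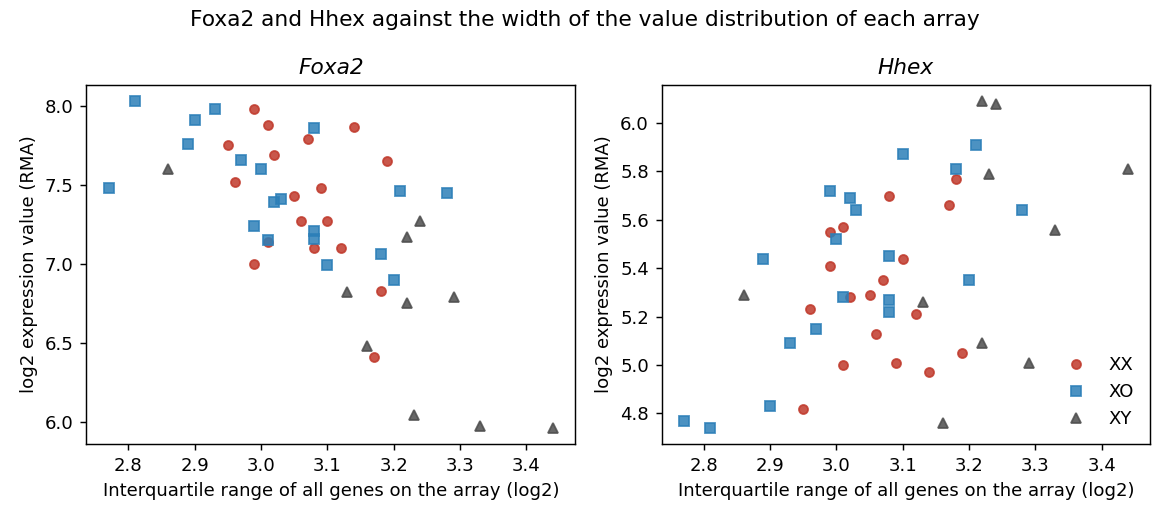
Log2 expression value of Foxa2 and Hhex (vertical axes) against the interquartile range of all genes on the same array in log2 units (horizontal axes), with 1 point per array for XX, XO and XY. Foxa2 is lower on wider arrays, most in XY (r = -0.71, n = 10), and Hhex in XO is higher on them (r = 0.72, n = 19).

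RefSeq's promoter table for build GRCm38.p6 held 3 start sites of Foxa2 and 1 of Hhex, and no entry used here for Gata4, Gata6, Sox17 or Sox7. Each entry is 300 bases around the start. No homeobox word was searched for, so the family of Hhex is left out. Both strands were searched for 2 words per factor family of the other members. These were AGATAA or TGATAA for GATA factors, ACAATG or ACAAAG for SOX factors and TGTTTAC or TGTTTGC for forkhead factors. Of these 4 entries only the Foxa2 start at chr2:148045415-148045714, minus strand, held a match, and it is shown for that reason, 5′ to 3′, with its 1 GATA word and 2 SOX words in capitals.
Foxa2 promoter: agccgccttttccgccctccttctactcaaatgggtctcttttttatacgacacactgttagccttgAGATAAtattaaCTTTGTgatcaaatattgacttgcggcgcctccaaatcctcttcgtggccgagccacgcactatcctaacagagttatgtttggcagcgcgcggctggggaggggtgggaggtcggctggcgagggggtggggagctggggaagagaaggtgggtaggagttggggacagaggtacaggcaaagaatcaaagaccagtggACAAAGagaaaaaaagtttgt
Among all 32851 promoters listed, 18.6% held a GATA word, 28.6% a SOX word and 8.48% a forkhead word, so such matches are common. A match describes letters only, and the gene values do not separate the 3 Foxa2 starts.

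Hhex, a homeobox factor of the anterior visceral endoderm and the early liver and thyroid, fell in XY cells. At 0 h XX had 5.77 and 5.66 and XO had 5.64 and 5.72, all below XY at 6.09 and 6.08. XX minus XY was -0.37 (SE 0.13) with a limma adjusted p of 0.102, and XO minus XY was -0.41 (SE 0.13) with 0.0852, so neither passed. Both differences passed after quantile normalization, at -0.52 and -0.53 (limma adjusted p = 0.0349 and 0.0391, ranges over 8 alternatives 0.0349 to 0.291 and 0.0391 to 0.270). Later XY values were 5.79 at 8 h, 5.81 at 16 h, 5.56 at 24 h, 5.29 at 32 h, 5.26 at 48 h and 4.76 at 60 h, with 5.01 at 72 h and 5.09 at 84 h. The late mean was 4.95 ± 0.17 (n = 3), against 6.09 ± 0.01 at 0 h (n = 2; SD), a fall by 1.13 (SE 0.27, limma adjusted p = 0.00615). Both this and the XY course (limma F test, adjusted p = 1.73e-04) passed in each alternative, 9 and 8 in number. Late minus 0 h ran from -1.2 to -1.03 over its alternatives. It came nearest the threshold without XY 0 h A, which leaves 1 array at 0 h. For the course, the XY arrays left out 1 at a time were only those at 0 and 84 h.

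In XO cells Hhex was lowest at 52 to 66 h and high again at the last times. It lay between 5.44 and 5.87 from 6 to 24 h, between 5.15 and 5.52 from 28 to 48 h, and at 4.74, 4.83, 4.77 and 5.09 from 52 to 66 h. At 72 and 84 h it stood at 5.91 and 5.64, beside 5.64 and 5.72 at 0 h. The XO course passed (limma F test, adjusted p = 5.27e-04), while late minus 0 h was -0.33 (SE 0.25, limma adjusted p = 0.439). The low values at 52 to 66 h came from 4 of the 6 narrowest arrays, those at 72 and 84 h from the widest XO arrays (3.21 and 3.28), and Hhex followed array width in XO with Pearson r of 0.72 over 19 arrays. Without the 6 narrowest arrays the adjusted p of the XO course was 0.0330 (range over 10 alternatives 3.72e-05 to 0.0330). The part of array width was not tested beyond this.

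In XX cells the values of Hhex were 5.77 and 5.66 at 0 h, 5.00 to 5.70 from 6 to 24 h, 4.82 to 5.55 from 32 to 48 h and 4.97 to 5.57 from 52 to 84 h. At 36 h both arrays lay below both 0 h arrays, by -0.43 (SE 0.13, limma adjusted p = 0.0656). That difference did not pass, but did after centring and after quantile normalization (-0.53 to -0.36 over 8 alternatives). The course did not pass (limma F test, adjusted p = 0.0666), but did under 5 of 10 alternatives, both scalings among them (adjusted p = 0.0198 after centring and 0.0357 after quantile normalization, range 0.0174 to 0.249).

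Among the 15 pairs of members, Pearson r over all 47 cell arrays reached neither 0.5 nor -0.5. Within XX the strongest was -0.71 between Gata6 and Foxa2, over 18 arrays, and within XO 0.56 between Sox7 and Foxa2, over 19 arrays. Within XY it was 0.69 between Gata4 and Sox17, over 10 arrays. Points of 1 line follow each other in time and share array width, so these values are descriptions. Among 22739 other genes, the one most like Sox7 over the cell arrays was ENSMUSG00000031688 (r = 0.754), with r of 0.806 in XX, 0.249 in XO and 0.882 in XY. The one most like Gata6 was ENSMUSG00000031486 (r = 0.767), with r of 0.800, 0.327 and 0.402. The files used here give no symbol for either.

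The reference RNA array shows what the same probes read in another RNA. Gata6 stood at 9.73 there, above all 47 cell arrays, of which the highest had 8.44. Gata4 stood at 7.63, above all cell arrays as well but by only 0.15. The reference read lower than the cells for Sox17, with 6.53 against 6.58 to 7.63, and was within the cell range for Sox7 (5.55), Foxa2 (6.74) and Hhex (4.91).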

How the data were processed

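Biotin-labelled RNA of 47 cell samples and 1 reference RNA was hybridised to exon arrays, per the labels' protocols. The deposited table holds 1 log2 value per Ensembl gene and array. The submitters' processing notes name RMA and affy as the authors' tools. The sources used here give neither tool versions nor the probe annotation or genome build. Precision is limited by the number of arrays. Nothing in the labels makes A and B separate cultures, so the p-values of the 0 h and 36 h comparisons may reflect technical spread alone. In the late fit the spread also holds change within the window, and in the course fit it holds departures from the spline.

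The 6 members and the lists were chosen with earlier results of these data known. All 6 are reported, whatever their values. The gene table at hand has 49997 genes but 0 Ensembl identifiers, so lists of other endoderm genes and cell type markers were not used here.

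limma 3.58.1 in R 4.3.3 was run on all 22745 genes in 3 fits, each with moderated two-sided tests and p-values adjusted by Benjamini-Hochberg across the table, called under 0.05. The conditions with 2 arrays (10 arrays, 5 residual degrees of freedom) gave the 0 h and 36 h comparisons. The 0 h and 60 to 84 h arrays (17 arrays, 11 degrees) gave the late ones. A natural cubic spline of time in each line, 4 terms with knots at 17, 36 and 56 h (47 arrays, 32 degrees), gave the courses and the XX by XO tests. Each fit was tested on simulated data. For likeness, the gene with the highest Pearson r was taken for each of the 2 members with the largest range. Alternatives were centring on array medians, quantile normalization, leaving out the dimmest 25% of genes, an eBayes trend, a replicate block, 3 spline terms and leaving out arrays.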

Additional observations from a re-analysis of the deposited data

Results flagged for a closer look

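The XX and XO courses of Gata6 differed (limma interaction F test, adjusted p = 6.29e-04), with a fitted 84 h minus 0 h change in XX minus that in XO of -1.14 (-2.06 to -0.85 over 16 alternatives, the extremes without XO 84 h and without XX 0 h B), and so did those of Sox7 (adjusted p = 0.0386). The same test passed 27.1% of all genes, and the Sox7 call was lost in 6 of its 15 alternatives.

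Of 12 late groups of 4 arrays, examined for 1 array far from the others, 2 stood out, where chance gives about 5%. In XO, Gata4 had 7.16 at 60 h beside 6.6, 6.68 and 6.68, and Foxa2 had 7.98 at 66 h beside 7.48, 7.46 and 7.45. Both arrays are among the 6 with the narrowest value distributions, with interquartile ranges of 2.77 and 2.93.

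The reference RNA, which enters no comparison, read above every cell array for Gata6 (9.73) and Gata4 (7.63).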

How the results depend on the processing

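Counts below are of the 6 members called. For XX against XO at 0 h, 0 became 1 (Foxa2) after centring, after quantile normalization and with an eBayes trend, 2 (Gata6, Foxa2) without the dimmest genes, and 0 to 2 with 1 array left out. For XX against XY at 0 h, 1 became 3 (Gata6, Foxa2, Hhex) after centring and after quantile normalization, 2 without the dimmest genes, and 0 to 2 with 1 array left out. For XO against XY at 0 h, quantile normalization gave 1 (Hhex). For 36 h against 0 h in XX, 2 became 3 after centring and after quantile normalization (Gata6, Foxa2, Hhex) and with an eBayes trend (Gata6, Sox7, Foxa2). Leaving out 1 array gave 0 to 3 for 36 h against 0 h in XX (0 without XX 36 h A), 0 to 2 for late against 0 h in XX (0 without XX 0 h B), 1 to 2 for late against 0 h in XY, 0 to 1 for XX against XO late, and 1 to 3 for the XO course and for the XX by XO courses. Leaving out the dimmest genes, which removes Sox7 and Hhex, gave 1 for late against 0 h in XY, XX against XO late, XX against XY late and the XX by XO courses, and 0 for the XO course. Without the 6 narrowest arrays, chosen after seeing the data, 1 was called for XX against XO late (Hhex) and for the XX by XO courses (Gata6), and 2 (Gata4, Hhex) for the XO course and the average level. Quantile normalization left 1 (Gata6) for the XX by XO courses. The fitted 84 h minus 0 h value turned sign for Hhex in XO after centring (-0.06). With 1 array left out it ran from -0.58 to 0.65 for Sox7 in XX, -0.47 to 0.49 for Hhex in XX, -0.29 to 0.75 for Foxa2 in XY and -0.68 to 1.17 for Sox7 in XX minus XO, each sign change coming without an 84 h array. Except where fewer genes or arrays entered, the cause was not tested. A and B share only a letter between conditions (correlations of A minus B of -0.134 to 0.189 over 10 pairs), and the replicate block changed no call (Gata6 for 36 h against 0 h in XX was -0.96, limma adjusted p = 0.0276). The 38 member comparisons with an unadjusted p under 0.05 had 390 alternative values. Of these, 341 kept direction and call status, 19 lost the call, 25 gained it and 5 turned sign. Not all 38 were called to begin with, so the 341 include values that stayed without a call. The other 70 member comparisons had 768 alternative values, of which 678 kept both, 9 gained a call and 81 turned sign. Centring moved the median of all genes by -0.24 to 0.14, and quantile normalization by -0.16 to 0.13. Sox7 and Hhex are dim, which limits their single values.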
